A study of Mus musculus with 20 samples.

Results

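The genes described here are the 10 mouse genes for interleukin-1, interleukin-18, their receptors and their natural antagonists: Il1a, Il1b, Il1rn, Il1r1, Il1r2, Il1rap, Il18, Il18r1, Il18rap and Il18bp. They were taken by symbol from the 49315 gene identifiers in the count tables, and all 10 were found and tested. RNA sequencing was done on eosinophils, granulocytes that enter inflamed and transplanted lung, which had been sorted from mouse lung by flow cytometry. Each library pooled the lungs of 3 to 5 mice. The resting group (n = 5) came from untreated C57BL/6 mice. The graft group (n = 5) came from Balb/c lungs that had been in C57BL/6 recipients for 7 days without costimulatory blockade (CSB), a treatment that denies T cells their second activating signal. The labels call the infiltrating eosinophils recipient cells, and give neither age nor sex. The labels list 20 samples in 4 groups, and the groups given blockade (day 7 and day 30) were not analysed here.

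Interleukin-1 alpha and beta act on a shared receptor whose chains are made by Il1r1 and Il1rap, and signal through MyD88 and IRAK kinases to NF-kB. The antagonist made by Il1rn occupies the receptor without signalling, and the Il1r2 product is a decoy that binds ligand but lacks the signalling domain. Interleukin-18 uses the chains made by Il18r1 and Il18rap, acts with interleukin-12 to raise interferon-gamma in T and NK cells, and is neutralised by the soluble protein from Il18bp. Interleukin-1 beta and interleukin-18 are made as precursors that caspase-1 cuts within inflammasomes, so a transcript level does not give the level of active cytokine.

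The promoters of the 4 genes with the largest rises are shown so that the sequences before genes that rose together can be set side by side. Each is the 250 bases before a RefSeq transcription start, on build GRCm38.p6, written 5′ to 3′ on the strand of the gene. Capitals mark matches to the AP-1 motif TGANTCA and to the TATA element TATAAA, both searched on both strands. The windows are chr7:102018233-102018482 (minus strand) for Il18bp, chr2:129309973-129310222 (minus strand) for Il1a, chr2:129371140-129371389 (minus strand) for Il1b, and chr2:24336610-24336859 (plus strand) for the first of the 3 RefSeq starts of Il1rn.
Il18bp promoter: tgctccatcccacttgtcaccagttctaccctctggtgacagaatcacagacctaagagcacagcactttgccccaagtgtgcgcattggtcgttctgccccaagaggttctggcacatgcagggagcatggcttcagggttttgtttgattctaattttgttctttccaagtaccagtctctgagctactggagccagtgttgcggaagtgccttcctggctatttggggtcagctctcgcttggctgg
Il1a promoter: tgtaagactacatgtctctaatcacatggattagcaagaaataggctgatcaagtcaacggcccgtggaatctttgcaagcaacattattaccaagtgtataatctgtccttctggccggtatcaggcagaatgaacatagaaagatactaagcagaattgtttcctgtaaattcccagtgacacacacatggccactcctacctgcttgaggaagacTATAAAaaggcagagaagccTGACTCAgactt
Il1b promoter: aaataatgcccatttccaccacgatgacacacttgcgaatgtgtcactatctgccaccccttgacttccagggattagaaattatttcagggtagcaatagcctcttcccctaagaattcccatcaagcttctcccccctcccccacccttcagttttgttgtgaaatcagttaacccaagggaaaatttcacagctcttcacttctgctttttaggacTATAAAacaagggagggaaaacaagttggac
Il1rn promoter: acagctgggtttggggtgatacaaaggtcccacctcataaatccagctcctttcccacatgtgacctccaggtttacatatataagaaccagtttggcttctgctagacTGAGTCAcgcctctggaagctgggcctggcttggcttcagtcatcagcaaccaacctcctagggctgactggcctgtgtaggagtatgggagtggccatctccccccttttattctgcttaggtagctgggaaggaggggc
Il1a held TATAAA 32 to 27 bases and TGACTCA 12 to 6 bases before its start, and Il1b held TATAAA 31 to 26 bases before its start. The printed Il1rn window held TGAGTCA 141 to 135 bases before the start, and the windows of the other 2 Il1rn starts held no match to any motif searched. The Il18bp window held no match to these motifs, nor to the gamma-activated site TTCNNNGAA, the core of the interferon-stimulated response element (ISRE), the PU.1 core GAGGAAGT or the kappa B consensus. That window lies inside the annotated span of the gene, which reaches base 102018690. The bases before that outer end were not searched. Of 32841 RefSeq mouse promoter windows of this length, 12.4% held TATAAA, 6.75% TGANTCA, 7.02% TTCNNNGAA, 3.9% the kappa B consensus, 2.98% the ISRE core and 2.44% GAGGAAGT. Among the other members, the Il1r2 window held TTCAAGGAA, the third Il18r1 window held TTCTGGGAA and TTCCCAGAA, the Il18rap window held GAGGAAGT, the second Il1r1 window held a kappa B match and the Il18 window held TATAAA on the opposite strand. The Il1r2 window also lies inside the annotated span of its gene, which begins at base 40074079. A match describes these letters only, and nothing was measured here on binding to them.

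In the grafts 5 of the 10 genes were higher, 1 was lower and 4 did not pass the test. Higher were both agonists, Il1a and Il1b, both soluble antagonists, Il1rn and Il18bp, and the accessory receptor chain Il18rap. The signalling receptor chain Il1r1 was lower. By edgeR's quasi-likelihood test at an adjusted p below 0.05, 23.3% of the 16500 genes tested were higher, 23.4% lower and 46.7% changed in either direction. The median log2 fold change was 0.64 over the 10 members and 0.05 over all genes tested. By CPM, counts scaled to library size, the groups did not overlap for 6 members: Il1a, Il1b, Il1rn, Il1r1, Il18rap and Il18bp. All resting libraries then lay on 1 side of all graft libraries, which held for 35.1% of all genes tested. Scaling to library totals alone shifted all genes by a median of -0.19 on the log2 scale, and 33.8% of the called genes were then higher where 49.9% had been. Under that scaling the members again gave 5 higher and 1 lower.

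**Figure D1:**
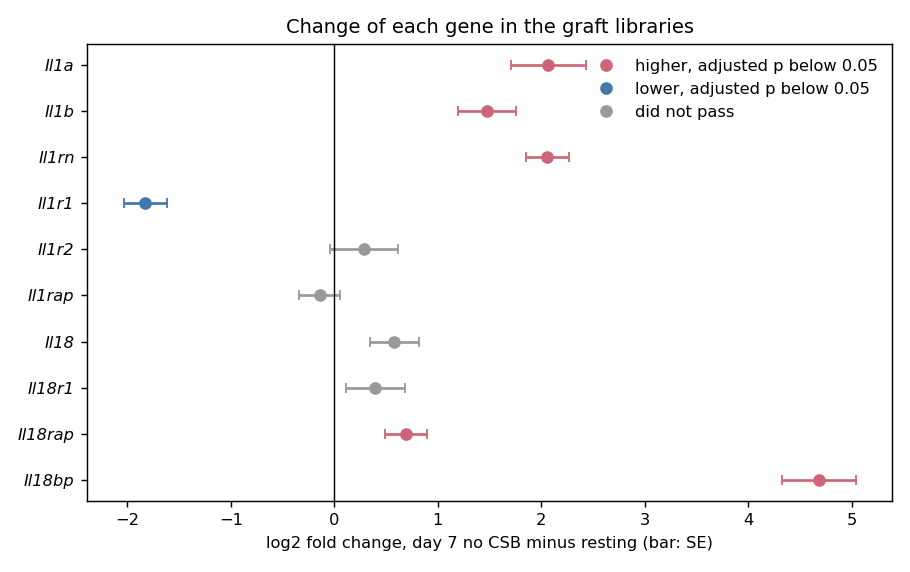
Log2 fold change (x axis, day 7 without CSB minus resting) of each of the 10 genes, with bars for the standard error from the quasi-likelihood fit and colours for the call at an adjusted p below 0.05. Il18bp lies farthest to the right at 4.68, Il1a, Il1rn, Il1b and Il18rap are the other higher genes, and Il1r1 at -1.83 is the lower one.

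Before the values, some facts apply to every result. Library totals were 6666577 to 12883144 counts for resting lung and 15695074 to 26683784 for the grafts, and no member had fewer than 50 counts in any library. Values are CPM, which express counts relative to library totals scaled by the TMM method, with mean ± SD over the 5 libraries. The groups stood in separate deposited tables, so a batch difference cannot be told apart from the group difference, and p-values measure the spread between pooled libraries only. Because each library is bulk RNA, fewer cells of a type and less RNA per cell cannot be told apart. Graft replicate 1 was the highest graft library for 7 of the 10 genes (Il1a, Il1b, Il1r1, Il1r2, Il1rap, Il18rap and Il18bp), and graft replicate 4 the lowest for 6 (Il1a, Il1b, Il1rn, Il1r1, Il1r2 and Il18bp).

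Markers of the sorted cell and of other cells were summed in each library as CPM. Eosinophil markers (2 of 14 higher, 6 lower, led by Alox15 and Csf2rb) summed to 2540 to 4421 in resting lung and 2665 to 5031 in the grafts, and every one was detected. The 6 lower ones encode granule proteins, Epx (log2 fold change -3.75), Prg3 (-2.81), Prg2 (-2.51), Ear1 (-2.04), Ear2 (-1.97) and Ear6 (-1.79), and the 2 higher ones were Csf2rb (1.21) and Siglecf (0.59, adjusted p = 0.0465). The eotaxin receptor gene Ccr3, at 356 and 443 CPM, did not pass. Neutrophil markers (0 of 14 higher, 5 lower, led by Retnlg and S100a9) summed to 9471 to 12641 and 5344 to 10830.0, so neutrophil transcripts were abundant in both groups. Monocyte and macrophage markers (12 of 14 higher, led by Lyz2 and Cd14) summed to 6501 to 11069 and 12658 to 26377. T cell markers (12 of 12 higher, led by Lck and Cd3e) went from 90.7 to 133 up to 348 to 877, NK cell and ILC markers (6 of 10 higher, 1 lower, led by Gzma and Klrk1) from 123 to 153 up to 279.8 to 581, and dendritic cell markers (5 of 10 higher, 1 lower, led by Ccr7 and H2-DMb2) from 233 to 321 to 314 to 384. Endothelial markers (10 of 10 lower, led by Pecam1 and Kdr) went from 2127 to 2848 down to 101 to 166, epithelial markers (10 of 11 lower, led by Sftpc and Scgb1a1) from 3262 to 4778 down to 36.8 to 517, and stromal markers (5 of 10 lower, 2 higher, led by Inmt and Col3a1) from 1219.7 to 1547 down to 141 to 696. Alveolar macrophage markers (6 of 9 lower, 2 higher, led by Chil3 and Ear2) summed to 1505 to 2225 and 597 to 1404, and B cell markers (6 of 8 lower, led by Cd79a) to 356 to 523 and 198 to 301. Ear1 and Ear2 are counted in both the eosinophil and the alveolar macrophage list. Platelet markers (6 of 6 lower, led by Itgb3 and Ppbp) summed to 327 to 483 and 102 to 179, red cell markers (6 of 6 lower, led by Hba-a1 and Hbb-bs) to 1235 to 1866 and 46.1 to 104, and mast cell and basophil markers (1 of 6 tested higher, 1 lower, led by Kit and Gata2) to 199 to 267 and 46.8 to 235. The mast cell protease gene Mcpt4 was at 0 in all 5 resting libraries, and no other marker was at 0 throughout a group.

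Il1b was the most abundant of the 10 genes in both groups. Il1b, the inflammasome-processed agonist (ENSMUSG00000027398, mm10 chromosome 2, 129364570 to 129371139), had 3101, 2916, 2102, 2842 and 1905 CPM in resting replicates 1 to 5. In graft replicates 1 to 5 it had 12418, 7638, 6645, 3849.6 and 5195 CPM. Every graft library was above every resting one, and graft replicate 1 stood far above its group while graft replicate 4 lay close to the resting range. The mean went from 2573 ± 533 to 7149 ± 3277 CPM, a log2 fold change of 1.47 ± 0.28 (SE, adjusted p = 0.000692). By TPM, a level scaled for gene length and library size, Il1b ranked 23 to 31 among all genes in the resting libraries and 4 to 17 in the grafts.

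Il1a, the agonist that is active as a precursor and is released from damaged cells (ENSMUSG00000027399, chromosome 2, 129299610 to 129309972), lies beside Il1b and is transcribed from the same strand. It had 254, 424, 424, 167 and 428 CPM in resting replicates 1 to 5 and 2658, 1443, 822, 759 and 1448 CPM in graft replicates 1 to 5. The groups did not overlap, and graft replicate 1 was again the highest library. The mean went from 339.6 ± 122 to 1426 ± 763 CPM, a log2 fold change of 2.07 ± 0.36 (adjusted p = 0.000433). Per length, Il1a was 0.138 ± 0.070 of Il1b in resting lung and 0.194 ± 0.054 in the grafts, and the groups overlapped (exact two-sided permutation p = 0.206, adjusted over the 6 ratios 0.248).

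Il1b and Il1a transcripts are also plentiful in neutrophils, monocytes and macrophages. In graft replicates 1 to 5 the monocyte and macrophage marker sums were 18085, 26377, 19663, 15769 and 12658 CPM, and the neutrophil marker sums 10830.0, 5344, 6839, 8617 and 8921 CPM. The graft library with the most Il1b and Il1a, replicate 1, had the highest neutrophil sum of its group and the third highest monocyte sum. Replicate 2, the second highest for Il1b, had the lowest neutrophil sum and the highest monocyte sum. Replicates 4 and 5, the lowest for Il1b, had the next highest neutrophil sums and the lowest monocyte sums. Each sum leans on its most abundant gene. In the grafts Retnlg had a mean of 4289 CPM (1385 to 7127) and Lyz2 a mean of 11595 CPM (8123 to 15089). Other markers of these lists can order the libraries otherwise. The part of neutrophils, monocytes and macrophages in the Il1a and Il1b results was not tested.

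Il1rn, the receptor antagonist (ENSMUSG00000026981, chromosome 2, 24336853 to 24351494), had 503, 590.4, 684, 394 and 645 CPM in resting replicates 1 to 5. The graft replicates 1 to 5 had 2748, 2339, 2169.9, 1493 and 2979.9 CPM. The lowest graft library was above the highest resting library by a wide margin. The mean went from 563 ± 117 to 2346 ± 575 CPM, a log2 fold change of 2.06 ± 0.21 (adjusted p = 2.47e-06), with a smaller standard error than that of Il1a or Il1b. Il1rn was also among the genes that rose in libraries whose monocyte and macrophage markers rose (summed 6501 to 11069 and 12658 to 26377 CPM), and the part of those cells in its rise was not tested.

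Agonists and antagonist rose together, so their balance was compared within each library. Per length, Il1rn over the sum of Il1a and Il1b was 0.0518, 0.0612, 0.0939, 0.0452 and 0.0958 in resting replicates 1 to 5. In the grafts it was 0.0632, 0.0892, 0.101, 0.112 and 0.156. The groups overlapped: resting replicates 3 and 5 lay above graft replicates 1 and 2. The mean log2 ratio was 0.59 higher in the grafts, which did not pass (exact two-sided permutation p = 0.0873, adjusted over the 6 ratios 0.131), and in every library the antagonist transcript was well below the summed agonists.

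Il1r1 encodes the chain that binds ligand and signals (ENSMUSG00000026072, chromosome 1, 40225080 to 40317257). It had 17.4, 8.95, 15.2, 15.6 and 12.5 CPM in resting replicates 1 to 5 and 5.12, 3.57, 4.24, 3.30 and 3.34 CPM in graft replicates 1 to 5. All graft libraries lay below all resting libraries, and the graft values were tightly grouped. The mean went from 13.9 ± 3.27 to 3.91 ± 0.77 CPM, and Il1r1 fell by 1.83 ± 0.21 on the log2 scale (adjusted p = 9.03e-06). Il1r1 is strongly expressed by endothelial and stromal cells. In the same libraries endothelial markers (10 of 10 lower) went from 2127 to 2848 CPM down to 101 to 166 CPM. Stromal markers were mixed, with 5 of 10 lower, 2 higher and 3 that did not pass. Their sum, led by Inmt, went from 1219.7 to 1547 CPM down to 141 to 696 CPM. The part of those cells in the fall of Il1r1 was not tested.

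Il1r2, the decoy receptor (ENSMUSG00000026073, chromosome 1, 40074079 to 40125231), is a neighbour of Il1r1 on chromosome 1. Its values were 883, 795, 633, 965 and 585 CPM in resting replicates 1 to 5 and 1858, 778, 1040.1, 431 and 596 CPM in graft replicates 1 to 5. The groups overlapped widely, with graft replicate 1 the highest and graft replicate 4 the lowest of all 10 libraries. The means were 772 ± 162 and 941 ± 560.4 CPM, a log2 fold change of 0.29 ± 0.33 (unadjusted 95% interval -0.35 to 0.92, adjusted p = 0.507). Without graft replicate 1 it was -0.11 (adjusted p = 0.749), so that library decides its sign. Il1r2 is abundant in neutrophils, whose marker sums were 10830.0, 5344, 6839, 8617 and 8921 CPM in graft replicates 1 to 5. Graft replicate 1 was the highest for both. Graft replicates 4 and 5, the lowest for Il1r2, had the next highest neutrophil sums. These sums lean on Retnlg (graft mean 4289 CPM, range 1385 to 7127), and other neutrophil markers can order the libraries otherwise. The part of neutrophils in the Il1r2 values was not tested.

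Il1rap, the accessory chain that Il1r1 shares with the receptors for interleukin-33 and interleukin-36 (ENSMUSG00000022514, chromosome 16, 26581704 to 26730117), had 67.9 to 82.1 CPM in resting lung, median 71.2. In graft replicates 1 to 5 it had 100.5, 54.4, 83.6, 51.5 and 45.1 CPM. Graft replicates 1 and 3 lay above every resting library and the other 3 below every one. The log2 fold change was -0.14 ± 0.20 (unadjusted 95% interval -0.53 to 0.25, adjusted p = 0.591).

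The receptor chains were then compared within each library, per length. The decoy Il1r2 over Il1r1 was 169, 295, 138, 206 and 155 in resting replicates 1 to 5 and 1203, 721, 815, 432 and 591 in graft replicates 1 to 5. The groups did not overlap, and the ratio was 3.83-fold higher in the grafts (log2 difference 1.94, exact two-sided permutation p = 0.00794, the smallest that 5 against 5 allows, adjusted 0.0159). Il1rap over Il1r1 went from 3.10 ± 0.78 to 9.32 ± 1.57, again without overlap (3.03-fold, exact two-sided permutation p = 0.00794, adjusted 0.0159). In both ratios the denominator Il1r1 fell, and neither numerator passed the test by itself.

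**Figure D2:**
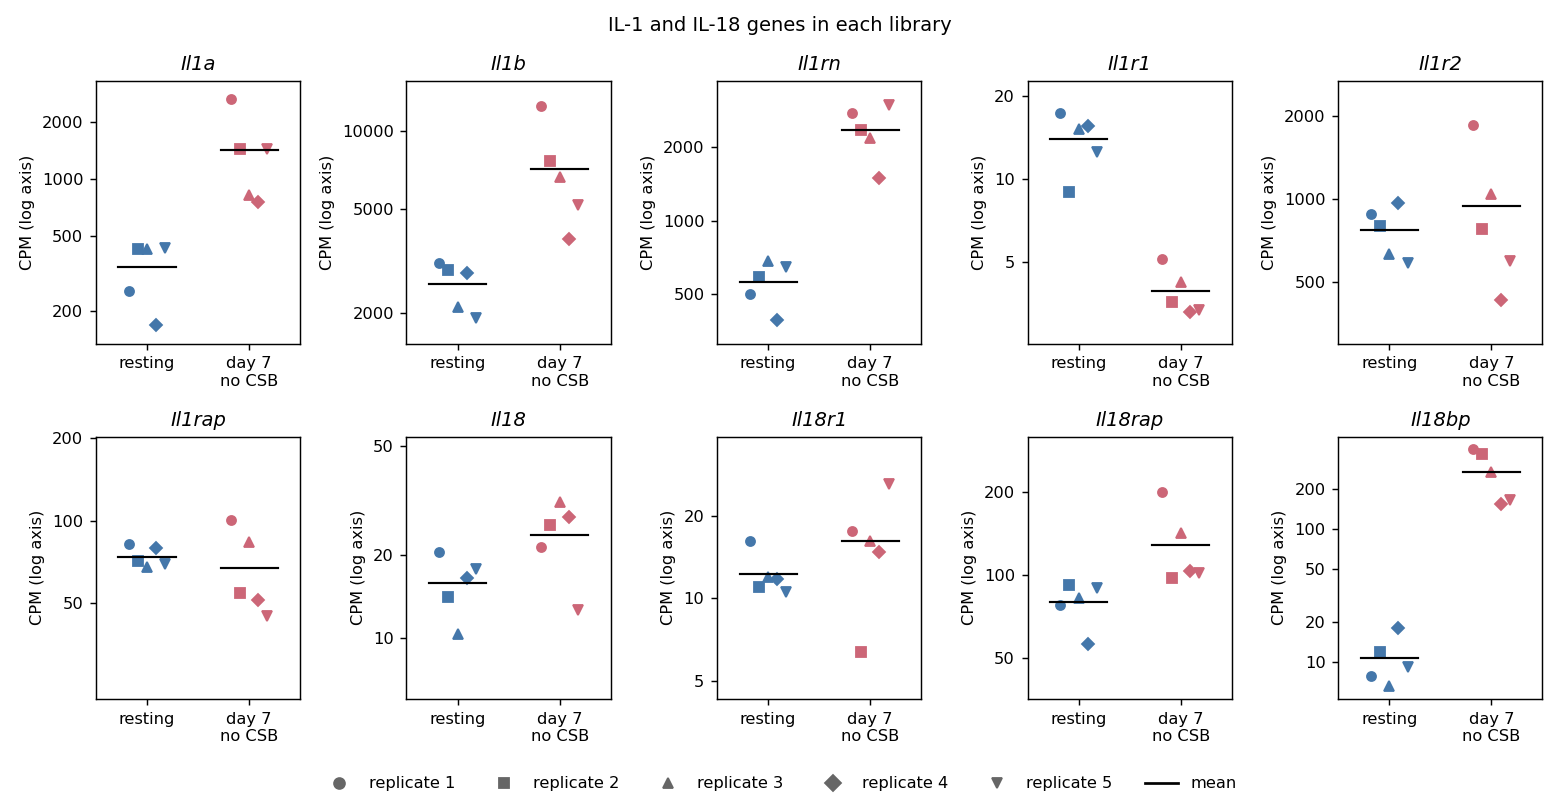
CPM of each of the 10 genes in each library (log y axes, 1 panel per gene), with a marker shape for each replicate number and a line at the group mean. Il1a, Il1b, Il1rn, Il18rap and Il18bp lie higher and Il1r1 lower in all 5 graft libraries, while Il1r2, Il1rap, Il18 and Il18r1 overlap between the groups.

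The interleukin-18 genes were led by their antagonist. Il18bp, the soluble protein that binds interleukin-18 and is known as a target of interferon-gamma (ENSMUSG00000070427, chromosome 7, 102014885 to 102018690), had 7.84, 11.8, 6.51, 17.985 and 9.04 CPM in resting replicates 1 to 5. In graft replicates 1 to 5 it had 399, 366, 270.1, 153 and 167 CPM. Even the lowest graft library stood far above the highest resting one, and graft replicates 4 and 5 were the lower pair. The mean went from 10.6 ± 4.55 to 271 ± 112 CPM, a log2 fold change of 4.68 ± 0.36 (25.7-fold, adjusted p = 3.09e-07). This was the rise of rank 34 among the 16500 genes tested, and by TPM the gene went from ranks 6235 to 10513 in the resting libraries to ranks 443 to 1059 in the grafts. Monocyte and macrophage markers were higher in 12 of 14 cases in these libraries, with a median log2 fold change of 2.04, summed 6501 to 11069 and 12658 to 26377 CPM, and none at 0 throughout a group. Lyz2, which makes up most of that sum, rose by 0.95. The largest log2 fold changes of the list were those of the complement genes C1qb (4.93), C1qa (4.67) and C1qc (4.62), Ms4a7 (4.45) and Fcgr1 (3.88). The rest of the list stood at 2.34 (Ly6c2) or below, and Cx3cr1 (-0.61) and Mertk (-0.36) did not pass. The part of these cells in the rise of Il18bp was not tested. Il18bp shares 80 exon bases with Numa1 on the opposite strand, and the sources used here do not say whether reads were counted by strand.

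Il18, the cytokine itself (ENSMUSG00000039217, chromosome 9, 50554827 to 50581840), had 20.5, 14.1, 10.3, 16.5 and 17.9 CPM in resting replicates 1 to 5 and 21.4, 25.8, 31.3, 27.4 and 12.7 CPM in graft replicates 1 to 5. Graft replicates 1 to 4 lay above every resting library, and graft replicate 5 lay within the resting range. The log2 fold change was 0.58 ± 0.23 (unadjusted 95% interval 0.12 to 1.04) and just missed the threshold with an adjusted p of 0.0579. It passed without graft replicate 5 (0.75, adjusted p = 0.00434), without resting replicate 1 (0.69, adjusted p = 0.0403) and with no filter on low counts (0.70, adjusted p = 0.000398).

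Per length, Il18bp over Il18 was 0.131, 0.286, 0.215, 0.371 and 0.173 in resting replicates 1 to 5. It was 6.35, 4.83, 2.94, 1.90 and 4.48 in graft replicates 1 to 5. By this measure the binding protein transcript was below the cytokine transcript in all 5 resting libraries and above it in all 5 graft libraries. Without the length correction, resting replicate 4 had slightly more Il18bp (17.985 CPM) than Il18 (16.5 CPM). The ratio was 17.2-fold higher in the grafts (log2 difference 4.10, exact two-sided permutation p = 0.00794, adjusted 0.0159).

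**Figure D3:**
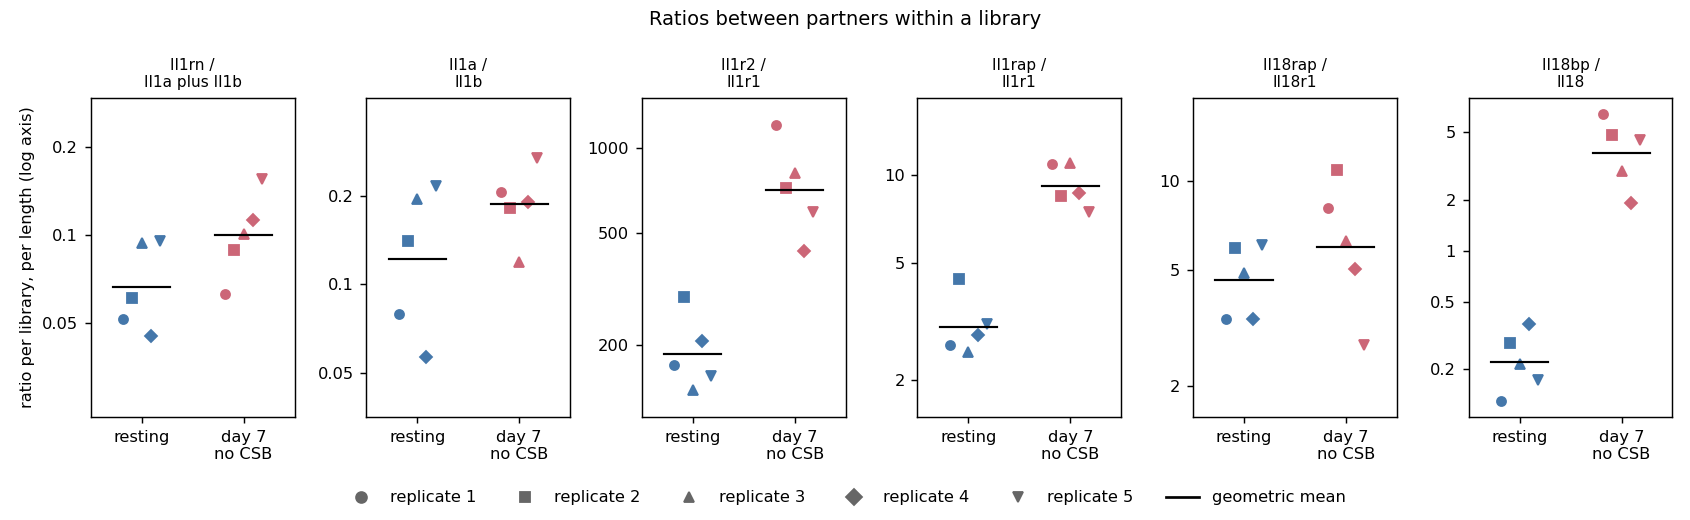
The 6 ratios between partner genes in each library, per length (log y axes), with a marker shape for each replicate number and a line at the geometric mean of each group. Il1r2 over Il1r1, Il1rap over Il1r1 and Il18bp over Il18 do not overlap between the groups, and the other 3 ratios do.

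Il18rap, the accessory chain that completes the interleukin-18 receptor (ENSMUSG00000026068, chromosome 1, 40515362 to 40551705), had 77.6, 92.2, 82.4, 56.4 and 90.0 CPM in resting replicates 1 to 5. Graft replicates 1 to 5 gave 200.4, 98.0, 142, 104 and 102 CPM. By CPM the groups were separate but close, with graft replicate 2 just above the highest resting library. By TPM they overlapped, with graft replicate 2 at 28.5 and resting replicates 2 and 5 at 29.7 and 30.3. The log2 fold change was 0.70 ± 0.21 (adjusted p = 0.0133), the smallest of the called members.

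Il18r1, the chain that binds interleukin-18 (ENSMUSG00000026070, chromosome 1, 40465552 to 40500854), had 16.2, 11.0, 11.985, 11.8 and 10.5 CPM in resting replicates 1 to 5 and 17.6, 6.37, 16.2, 14.7 and 26.1 CPM in graft replicates 1 to 5. Graft replicate 2 was the lowest and graft replicate 5 the highest of all 10 libraries, so the groups overlapped. The log2 fold change was 0.40 ± 0.29 (unadjusted 95% interval -0.16 to 0.96, adjusted p = 0.278), and it passed without graft replicate 2 (0.61, adjusted p = 0.0202) and with no filter on low counts (0.52, adjusted p = 0.0254). Without graft replicate 5 it was 0.17 (adjusted p = 0.619). Il18rap over Il18r1 was 4.74 ± 1.31 per length in resting lung and 6.63 ± 3.10 in the grafts, with overlap (exact two-sided permutation p = 0.325, adjusted 0.325). Both chains are made by T and NK cells, whose marker sums were higher in the grafts (T cell 348 to 877 CPM against 90.7 to 133, NK cell and ILC 279.8 to 581 CPM against 123 to 153). Graft replicate 5, the highest for Il18r1, also had the highest T cell sum of 877 CPM, while graft replicate 1, the highest for Il18rap, had 563 CPM. The part of these cells was not tested.

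The order of the levels per length showed which genes dominated, and it depends on the exon lengths used. These were 5535 bases for Il1rn, 1974 for Il1a and 1908 for Il1r2. By CPM, Il1rn stood above Il1a and Il1r2 in the grafts (2346 against 1426 and 941). In resting lung the order per length ran from Il1b at 3011 ± 660.1 TPM through Il1r2 at 902 ± 195, Il1a at 382 ± 134 and Il1rn at 227 ± 45.5 to Il18 at 34.5 ± 9.42 and Il18rap at 26.3 ± 4.79. Il1rap at 14.5 ± 1.60, Il18bp at 7.81 ± 3.24, Il18r1 at 5.71 ± 1.22 and Il1r1 at 4.89 ± 1.23 TPM came last. Neighbours whose libraries overlapped were Il1a and Il1rn, Il18 and Il18rap, and each neighbouring pair from Il1rap to Il1r1. In the grafts the order ran from Il1b at 8002 ± 3809 TPM through Il1a at 1539 ± 851, Il1r2 at 1059 ± 659 and Il1rn at 901 ± 215 to Il18bp at 190.2 ± 77.5. Il18 followed at 49.2 ± 15.6, Il18rap at 41.1 ± 15.2, Il1rap at 12.7 ± 4.90, Il18r1 at 7.21 ± 3.12 and Il1r1 at 1.32 ± 0.30 TPM. There Il1a overlapped with Il1r2 and Il1r2 with Il1rn, as did Il18 with Il18rap and Il1rap with Il18r1. The antagonist Il18bp moved from place 8, where its mean was already above that of Il18r1, to place 5. There it also stood above Il18rap and the cytokine Il18. Il1r1 was last in both groups.

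**Figure D4:**
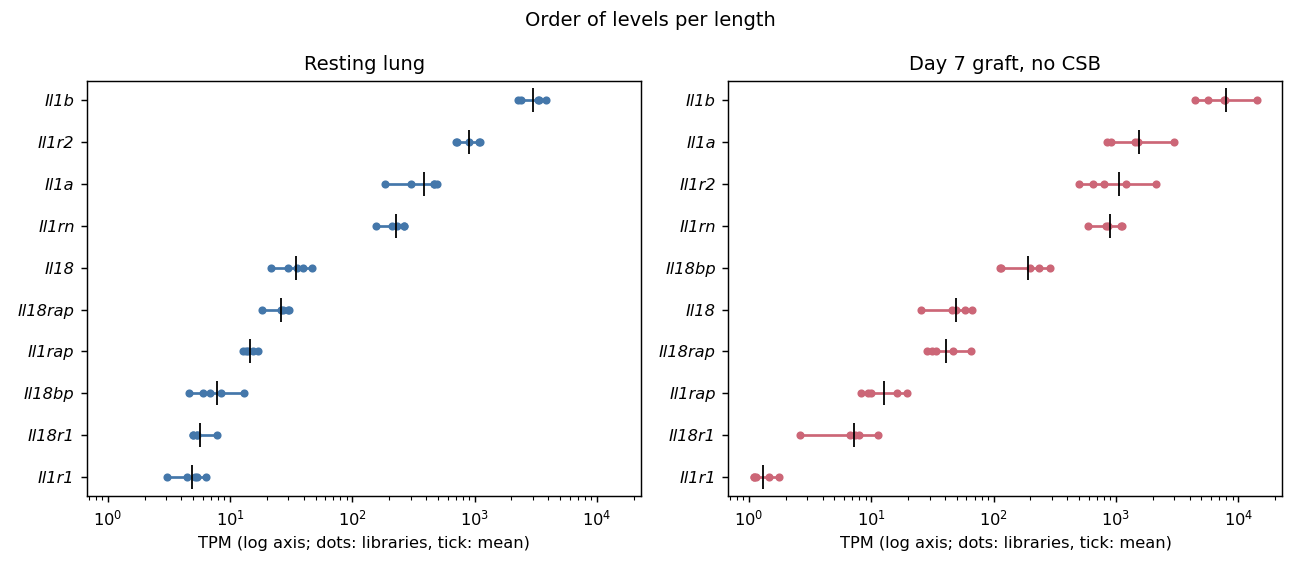
Level of each of the 10 genes per length (TPM, log axis) in each library (dots, joined over their range) of the resting and graft groups, ordered by the group mean (tick). Il1b leads both groups, Il1r1 is last in both, and Il18bp stands at place 8 in resting lung and at place 5 in the grafts.

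The profile of each gene over the 10 libraries was compared with that of every other tested gene, by the root mean square difference of log2 CPM after centring. Nearest to Il1b were Ptgs2, the inducible cyclooxygenase, at 0.12, and Mitf, a transcription factor, at 0.18. Nearest to Il1a were Pdcd1lg2, a ligand of PD-1, at 0.31, and N4bp1 at 0.35, and nearest to Il1rn were Sla2 at 0.20 and Bcl2a1b at 0.22. Among the genes near Il1r1 was Ppfibp1, at 0.16. Il1r2 ran closest to Trem1 at 0.20 and Fpr1, the formyl peptide receptor gene, at 0.20, and Il1rap to Tmx4 at 0.12 and Tgoln1 at 0.14. Among the interleukin-18 genes, Il18bp ran closest to Gbp2, a guanylate-binding protein, at 0.31, and Slamf8 at 0.32, Il18 to Insig1 at 0.17 and Lpar6 at 0.19, Il18rap to Plek at 0.12 and Skil at 0.17, and Il18r1 to Zdhhc15 at 0.28 and Oxnad1 at 0.28. These likenesses describe the 10 libraries and hold no test.

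The genes around the members were read from 6 lists with 73 distinct genes outside the 10. Of these, 66 were tested, 37 were higher (23.3% of all genes were) and 6 lower, 23 did not pass, and the median log2 fold change was 0.65, close to the 0.64 of the members. In the list of inflammasome and cytokine-processing genes 11 of 15 were higher and 1 lower, with a median of 0.97. Casp1, the protease that cuts pro-interleukin-1 beta and pro-interleukin-18, went from 32.1 ± 2.00 to 145 ± 14.8 CPM (log2 fold change 2.18, adjusted p = 3.93e-09), and every graft library was above every resting one. Nlrp1b (2.21), Mefv (2.03) and Nlrp3 (1.92), sensors that assemble inflammasomes, and Pycard (1.99), their adaptor, rose by the log2 fold changes in brackets. The log2 fold change of Nlrp3 was 1.16 without graft replicate 1, in which it had 1234 CPM, and its call ended with no filter on low counts (adjusted p = 0.0547). Nek7, a kinase that binds NLRP3, was the lower member, at -0.55. Monocyte and macrophage markers, whose cells express these genes, were higher in the same libraries (12 of 14), and their part was not tested.

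Among the other ligands, Il36g, an epithelial and myeloid agonist of the interleukin-36 receptor, went from 23.4 ± 10.1 to 110.7 ± 102 CPM (log2 fold change 2.25, adjusted p = 0.00288). Graft replicate 1 alone reached 289.7 CPM, and leaving it out gave a log2 fold change of 1.52. Il33, the alarmin of barrier cells, fell by 1.53 on the log2 scale (9.23 ± 2.95 to 3.18 ± 2.2 CPM, adjusted p = 0.018). Endothelial (10 of 10) and epithelial (10 of 11) markers were lower in these libraries, and stromal markers were mixed (5 of 10 lower, 2 higher). Il36a, Il36b, Il36rn and Il1f10 had too few counts to be tested, and Il1f10 was at 0 in all resting libraries. Of the other receptors, Il1rl1, which binds interleukin-33 and also pairs with the Il1rap chain, went from 28.9 to 68.2 CPM (log2 fold change 1.23, adjusted p = 0.00179). Sigirr, an inhibitory member of the family, fell by 0.84 on the log2 scale (adjusted p = 0.00391), and Il1rl2, the interleukin-36 receptor, did not pass (-0.22, adjusted p = 0.451). Il1rapl1 and Il1rapl2 had too few counts to be tested.

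Of the signalling genes downstream of the receptors, MyD88, IRAK kinases and their partners, 7 of 15 were higher, 0 lower and 8 did not pass, with a median log2 fold change of 0.31. Irak2 rose by 1.03, Peli1, a ubiquitin ligase, by 0.78, Map3k7, the kinase TAK1, by 0.71, Myd88, the adaptor, by 0.61 and Chuk, a kinase of the IKK complex, by 0.58 on the log2 scale. These rises were smaller than those of Il1a, Il1b and Il1rn. Of 19 tested genes known to be induced by interleukin-1, 11 were higher, 2 lower and 6 did not pass, with a median of 1.11. Among those that did not pass were Nfkbia, the most abundant of the list (log2 fold change 0.17, adjusted p = 0.457), and Nfkbiz (0.16, adjusted p = 0.597). Ptgs2 rose by 1.55, Il6 by 1.45, Cxcl1, a neutrophil attractant, by 1.40, and Mmp13, a collagenase, by 2.14, whose call ended with no filter on low counts (adjusted p = 0.0617) and whose log2 fold change was 2.94 without resting replicate 1. Csf2, the gene for GM-CSF, had a log2 fold change of 2.25 (adjusted p = 0.034) that rested on graft replicate 1, with 37.2 CPM: without it the value was 0.92 (adjusted p = 0.157). That call also ended without resting replicate 1, 2 or 5 (adjusted p 0.0722 to 0.0764), with library totals alone (0.052), with limma-voom (log2 fold change 1.45, adjusted p = 0.223), with no filter on low counts (0.116) and with the replicate block (1.39, adjusted p = 0.145). The lower genes were Mmp3, a stromal matrix protease, at -3.65 (-4.43 without graft replicate 1), and Sele, the endothelial E-selectin, at -1.93. Endothelial markers were lower in 10 of 10 cases, while stromal markers were mixed (5 of 10 lower, 2 higher).

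The interleukin-12 and interleukin-18 axis to interferon-gamma had 7 of 13 genes higher, Il18bp among them, and 1 lower, with a median of 0.84. Ifng itself went from 0.68 ± 0.56 to 27.5 ± 27.3 CPM, with graft libraries between 5.99 and 74.8 CPM (log2 fold change 5.26, adjusted p = 8.45e-05; 4.46 without graft replicate 5). Il12rb1, a chain of the interleukin-12 receptor, rose by 4.02, Il12b, a subunit of interleukin-12, by 2.43, and Tbx21, the transcription factor T-bet, by 1.90 on the log2 scale. Gadd45g, a stress response gene that interleukin-12 and interleukin-18 can induce in T cells, fell by 1.40. T cell markers were higher in 12 of 12 cases in these libraries, and their part in the rise of Ifng and Il12rb1 was not tested.

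**Figure D5:**
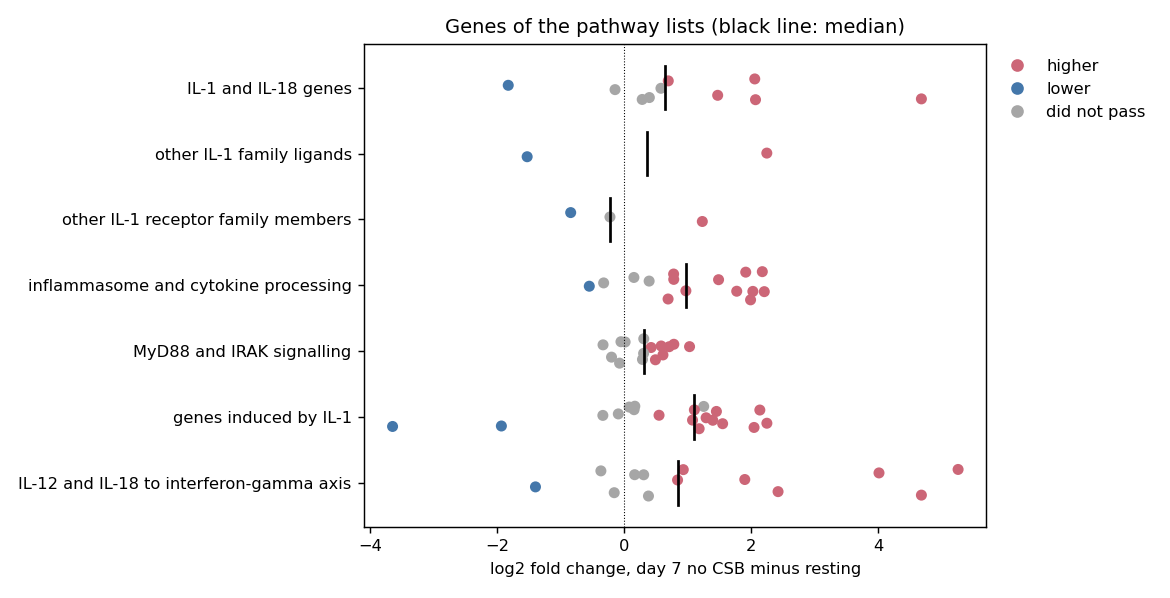
Log2 fold change (day 7 without CSB minus resting) of every tested gene in the 10-member set and in the 6 lists of related genes, 1 point per gene, with colours for the call and a line at each list's median. The inflammasome list lies mostly to the right (11 of 15 higher), the MyD88 and IRAK list lies near its median of 0.31, and the list induced by interleukin-1 holds the 2 lower genes Mmp3 and Sele.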

How the data were processed

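The measurement was RNA sequencing of lung eosinophils. Per the labels' protocols, RNA came from Trizol and libraries from the NEBNext Ultra II kit. The submitters' processing notes name build mm10, STAR 2.5.2b, Subread 1.5.2, featureCounts, bcl2fastq 2.17 and Trimmomatic 0.36. The sources used here do not give their settings, strand included, the annotation release, or how multi-mapped reads were treated. Per the file headers and values, the authors deposited raw counts per gene, whole numbers that were not normalized, in 2 tables joined by identifier. Columns were tied to samples by name, 10 in all, and 10 further columns whose headers match no label were not used. Reads of any Balb/c donor cell may align less completely to the C57BL/6 genome. Exons of Il1a, Il1b, Il1rap and Il18bp share 222, 25, 552 and 80 bases with genes on the opposite strand, whose reads cannot be told apart without strand.

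Symbols, positions and exon lengths came from GENCODE M21, and promoter sequences from RefSeq on GRCm38.p6. The interleukin-36 genes were matched through RefSeq synonyms. The edgeR filter by group removed 32815 genes and left 16500. Groups were compared by the quasi-likelihood F test of edgeR 4.0.16 (R 4.3.3), with TMM scaling, robust dispersion and group as the only term, and Benjamini-Hochberg adjustment over all genes tested at a threshold of 0.05. Standard errors are the size of the log2 fold change over the square root of F. TPM was computed here from exon lengths. The 6 ratios were taken per length with 0.5 counts added to each sum, and compared by exact permutation in scipy 1.17.1. A floor of 3 counts was 0.233 to 0.450 CPM in resting and 0.112 to 0.191 CPM in graft libraries, which covers counting error only. The test was first tested on simulated data.

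Named genes were the members, every gene of the ligand and receptor lists, up to 5 called genes per other list with the largest changes and at least 5 CPM in the higher group, the 2 nearest profiles per member, and the 2 most abundant genes of each marker list. Ccr3, Siglecf, the 6 granule protein genes, C1qa, C1qb, C1qc, Ms4a7, Fcgr1, Mcpt4, Nek7, Gadd45g, Il6 and Cxcl1 were named after their values were seen. So were Ly6c2, Cx3cr1, Mertk, Nfkbia and Nfkbiz. Not every gene picked this way is reported here. The members and the 6 pathway and 14 marker lists were chosen with earlier results of these data known. The TATA element was added to the motif search after the sequences were seen. The alternatives tried were DESeq2 size factors, library totals alone, the DESeq2 1.42.0 Wald test, limma 3.58.1 voom, no filter and a stricter filter of 1 CPM in 5 libraries, no robust dispersion, a replicate block and leaving out each library.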

Additional observations from a re-analysis of the deposited data

Results flagged for a closer look

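Of the 32 sets of 5 library values examined for a library that stands apart, 1 was picked out, where chance picks out about 1 in 20. It was Il18r1, the interleukin-18 binding chain, in resting lung, where replicate 1 had 16.21 CPM and the other 4 libraries 10.52 to 11.99 CPM. The same library was the highest resting library for Il1b, Il1r1, Il1rap and Il18.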

How the results depend on the processing

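Each member was recomputed under 18 alternatives, and Il1a (log2 fold change 1.73 to 2.24), Il1b (1.19 to 1.64), Il1rn (1.87 to 2.19), Il1r1 (-2.03 to -1.71), Il18rap (0.49 to 0.81, adjusted p up to 0.0462) and Il18bp (4.47 to 4.95) kept their calls in all of them. With no filter on low counts Il18 (0.70) and Il18r1 (0.52) passed the test, and the number of genes lower was 6715. Leaving out 1 library at a time gave 0.47 to 0.75 for Il18 and 0.17 to 0.61 for Il18r1. The same step gave -0.11 to 0.48 for Il1r2, which was -0.11 without graft replicate 1. The number of genes higher was 2495 with library totals alone, and the number lower was 6209 with the DESeq2 Wald test, beside 3843 and 3859 in the comparison as reported. The cause of these shifts was not tested.

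The replicate numbers are shared by the groups, but same-numbered libraries did not deviate together (correlations 0.12, 0, -0.11, -0.19 and 0.09), and no resting library correlated best with its own number. With the replicate block 3317 genes were higher and 3636 lower, and no member's call changed, while that of Csf2 ended (adjusted p = 0.145). Paired by number, the ratios could not pass, since 5 pairs allow no p that survives adjustment: Il18bp over Il18 (log2 difference 4.10), Il1r2 over Il1r1 (1.94) and Il1rap over Il1r1 (1.60) each had an adjusted p of 0.0938. Depth limits the least counted members, Il1r1, Il18bp (resting), Il18r1 and Il18, whose lowest libraries had 50, 63, 87 and 100 counts.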
